A study of Homo sapiens with 6 samples.

Results

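The 10 genes described here encode the acyltransferases and lipins that build triglyceride: GPAM, GPAT3, GPAT4, AGPAT1, AGPAT2, AGPAT5, LPIN1, LPIN3, DGAT1 and DGAT2. They were taken by gene symbol from 22465 genes measured on transcriptome arrays, each gene being represented by its transcript cluster with the highest mean signal, and 10 of 10 were found. The RNA was that of MDA-MB-231, a widely used triple-negative breast cancer cell line. In DSM OE cells a lentivirus drove a DAXX mutant with both SUMO-interacting motifs disabled, and in DAXX OE cells it drove wild-type DAXX, in each case from the cytomegalovirus immediate-early promoter and with epitope tags. DAXX chaperones the histone variant H3.3 and acts with transcription factors, and these motifs let it bind SUMO, a small protein modifier. Both groups carried endogenous DAXX as well, were selected with puromycin at 2 µg/mL and were cultured for 24 h in complete DMEM before RNA was isolated. There were 3 arrays of DSM OE and 3 of DAXX OE. The paper describes 1 stable line per construct, and separate transductions for the replicates are not stated. The p-values are therefore taken to reflect differences between cultures and not between independent transductions. The comparison addresses whether the SUMO-interacting motifs of DAXX matter for the expression of lipid synthesis genes. No array of cells without an added DAXX construct was included, so a gain in 1 group cannot be told apart from a loss in the other.

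Triglyceride is assembled stepwise on a glycerol backbone. Glycerol-3-phosphate acyltransferases (GPATs) add the first fatty acid, lysophosphatidate acyltransferases (AGPATs) add the next and give phosphatidate, lipins remove the phosphate to give diacylglycerol, and diacylglycerol acyltransferases (DGATs) add the last fatty acid. Phosphatidate and diacylglycerol are also the branch points to phospholipids, and the finished triglyceride is stored in lipid droplets.

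No member of the pathway passed the test over all genes, and the differences between DSM OE and DAXX OE were small. With all 6 arrays the log2 differences (DSM OE minus DAXX OE) ran from -0.060 for DGAT2 to 0.36 for GPAM, a fold change of 1.28. In limma's fit 0 of 10 had an adjusted p under 0.05, against 0.0623% of all genes, and 0 of 10 had an unadjusted p under 0.05, against 5.16% of all genes. The methods' t-test also gave 0 members at that unadjusted threshold. Under the rule in the study's methods, which asks for more than 1.3-fold at an unadjusted p under 0.05, the count was 0 of 10, against 2.25% of all genes. GPAM, GPAT4, AGPAT1, AGPAT5 and DGAT1 had every DSM OE array above every DAXX OE array, as did 13.7% of all genes. The groups overlapped for GPAT3, AGPAT2, LPIN1, LPIN3 and DGAT2. Of genes within the members' range of mean signal, 77.3% had a positive difference with 6 arrays, as detailed below.

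Array DAXX OE replicate 1 was unlike the rest, and the members' differences and ratios are therefore given with and without it. Its correlation with the other 5 arrays over all genes was 0.973 to 0.980, against 0.996 to 0.998 among those 5, and its signals were compressed, with an SD over genes of 1.63 (log2), against 1.82 to 1.85 in the others. In this array 8 of the 10 members had their lowest signal of the 6. DAXX itself had signals of 9.31, 9.36 and 9.36 in DSM OE, against 8.68, 8.95 and 8.94 in DAXX OE. These are from its brightest cluster, on an alternate haplotype of the major histocompatibility complex, and no other DAXX cluster was compared. Endogenous and added DAXX RNA were not told apart. At the protein level, the paper describes similar amounts of wild-type and mutant DAXX in xenograft tumours. The DAXX difference was 0.49 ± 0.10 (SE, adjusted p = 0.416) with 6 arrays and 0.40 ± 0.040 (SE, adjusted p = 0.0144) without DAXX OE replicate 1, where it passed the threshold, and the part of this DAXX difference in the results below was not tested. Markers of mesenchymal-like breast cancer cells were bright, 7 of 8 lying above the median gene, VIM and AXL among them. The adipocyte list had 2 of 8 above the median gene and mean signals of 5.61 to 5.77 in DSM OE and 5.67 to 5.98 in DAXX OE. LIPE and PLIN4 were those above it, at 7.22 and 7.08 in DSM OE and at 7.22 and 7.15 in DAXX OE. ADIPOQ and FABP4, the dimmest of the list, lay at 3.85 and 3.01 in DSM OE and at 3.87 and 3.06 in DAXX OE. Both were below the background probe sets, whose medians were 4.26 to 4.46. LEP, PLIN1, CIDEC and GPD1 lay above these medians but not above the median gene. Fibroblast markers had 1 of 5 above the median gene, and luminal epithelial markers 5 of 10, the keratins KRT8, KRT18 and KRT19 among them.

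**Figure D1:**
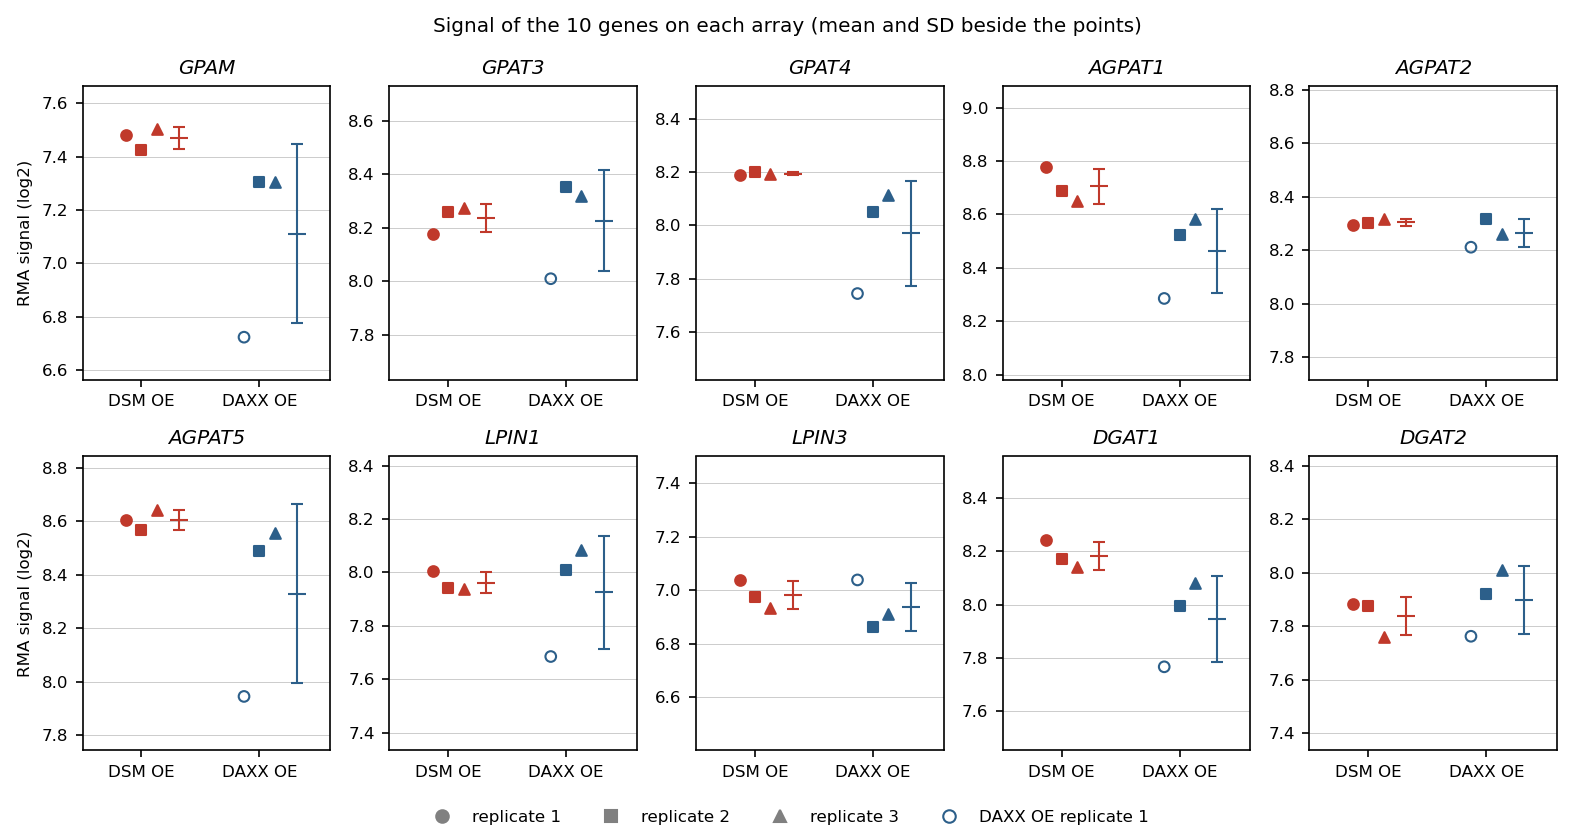
Log2 RMA signal of each gene (y axis) on the 3 DSM OE arrays (left, red) and the 3 DAXX OE arrays (right, blue), with the mean and SD beside the points. Every panel spans the same range of signal. The open circle is DAXX OE replicate 1, which holds the lowest value for 8 of the 10 genes. GPAM, GPAT4, AGPAT1, AGPAT5 and DGAT1 show no overlap, with DSM OE above, as did 13.7% of all genes.

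The first step is catalysed by GPAM, a mitochondrial GPAT, and by GPAT3 and GPAT4 of the endoplasmic reticulum. The GPAM signal was 7.48, 7.42 and 7.50 in DSM OE, against 6.72, 7.30 and 7.31 in DAXX OE. No DAXX OE array reached the lowest DSM OE array, and in bulk RNA fewer cells with the transcript and less of it per cell cannot be told apart. The difference was 0.36 (95% confidence interval -0.020 to 0.74, adjusted p = 0.682 in limma). Without DAXX OE replicate 1 it was 0.16 (0.062 to 0.27), a fold change of 1.12 with an unadjusted p of 0.00747 and an adjusted p of 0.149, so that the size of the 6-array value rested on that 1 array.

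GPAT4 showed the same order with little spread among the DSM OE cultures. Its signal was 8.19, 8.20 and 8.19 in DSM OE, against 7.75, 8.05 and 8.11 in DAXX OE. The groups did not overlap, and the difference was 0.22 (95% confidence interval -0.038 to 0.48, adjusted p = 0.682 in limma). It was 0.11 (0.014 to 0.21, adjusted p = 0.273) without DAXX OE replicate 1.

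GPAT3 did not share this order. Its signal was 8.18, 8.26 and 8.28 in DSM OE, against 8.01, 8.35 and 8.32 in DAXX OE. DAXX OE replicate 1 lay below the DSM OE arrays, and DAXX OE replicates 2 and 3 lay above them. The difference was 0.011 (95% confidence interval -0.25 to 0.27, adjusted p = 0.963 in limma) with 6 arrays, and its sign turned to -0.098 (-0.21 to 0.014, adjusted p = 0.400) without DAXX OE replicate 1 and to -0.12 (-0.25 to 0.0039, adjusted p = 0.488) after cyclic loess, which evens out level-dependent shifts between arrays.

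Because GPAM and GPAT3 act on the same substrate and the within-array ratio of their signals did not overlap between the groups, their promoters are shown, as 300 bases from 250 before to 50 after a start site of RefSeq (GRCh38.p14): GPAM at chr10:112183716-112184015 on the minus strand and GPAT3 at chr4:83535857-83536156 on the plus strand. Capitals mark the CCAAT box (CCAAT) and the GC box (GGGCGG), each on either strand.
GPAM: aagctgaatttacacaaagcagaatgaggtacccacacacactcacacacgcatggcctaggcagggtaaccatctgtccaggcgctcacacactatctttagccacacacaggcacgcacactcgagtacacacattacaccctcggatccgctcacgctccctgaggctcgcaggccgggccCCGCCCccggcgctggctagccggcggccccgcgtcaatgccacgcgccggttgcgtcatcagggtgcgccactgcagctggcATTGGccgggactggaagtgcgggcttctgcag
GPAT3: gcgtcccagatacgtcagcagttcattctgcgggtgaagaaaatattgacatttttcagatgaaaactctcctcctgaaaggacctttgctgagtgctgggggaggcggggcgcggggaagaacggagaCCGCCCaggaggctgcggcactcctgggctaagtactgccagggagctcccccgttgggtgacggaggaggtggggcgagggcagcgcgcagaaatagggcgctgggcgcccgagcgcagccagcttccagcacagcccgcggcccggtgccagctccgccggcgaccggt
The GPAM window held 1 CCAAT box and 1 GC box, and the GPAT3 window held 0 CCAAT boxes and 1 GC box. Over 35116 RefSeq promoter windows of this length, 34.6% held a CCAAT box and 45.0% a GC box. The sterol regulatory element TCACNCCAC and the E-box CACGTG, letters that SREBP factors are known to bind, were in neither window, against 1.13% and 7.26% of all windows. Of the 10 members, 5 matched the promoter table, with 12 windows in all, and 0 of the 12 held either of these letters. A match in letters is not evidence of binding, nor is its absence evidence of none.

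The next step, acylation of lysophosphatidate, is carried out by AGPAT1 and AGPAT2 in the endoplasmic reticulum, AGPAT2 being the form whose loss causes congenital generalised lipodystrophy, and by AGPAT5, which is associated with mitochondria. The AGPAT1 signal was 8.78, 8.69 and 8.65 in DSM OE, against 8.29, 8.52 and 8.58 in DAXX OE. There was no overlap, but DSM OE replicate 3 and DAXX OE replicate 3 were close. The AGPAT1 difference was 0.24 (95% confidence interval -0.00098 to 0.48, adjusted p = 0.682 in limma), and it was 0.15 (0.026 to 0.28, adjusted p = 0.249) without DAXX OE replicate 1. After cyclic loess it was 0.11 and the groups overlapped.

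AGPAT1 is the 1 member with several clusters, 7 in all: 1 on the chromosome 6 reference and 6 on alternate haplotypes of the major histocompatibility complex. These are versions of a single locus and not independent measurements, and the values above are those of the reference cluster. The 6 haplotype clusters differed by at most 0.0068 on any array, and their differences between the groups were 0.23 with 6 arrays and 0.14 without DAXX OE replicate 1. The other 9 members had 1 cluster each.

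AGPAT2 had the smallest difference of the 3 acyltransferases of this step. It had 8.29, 8.30 and 8.32 in DSM OE, against 8.21, 8.32 and 8.26 in DAXX OE. The groups overlapped, with a difference of 0.041 (95% confidence interval -0.14 to 0.22, adjusted p = 0.794 in limma). The value was 0.015 (-0.081 to 0.11) without DAXX OE replicate 1, and its sign turned to -0.091 after cyclic loess.

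In AGPAT5, as in GPAM, DAXX OE replicate 1 lay far below the rest of its group. Its signal was 8.61, 8.57 and 8.64 in DSM OE, against 7.95, 8.49 and 8.56 in DAXX OE. Here too the DSM OE values were all higher, although DSM OE replicate 2 and DAXX OE replicate 3 were almost equal. The difference was 0.28 (95% confidence interval -0.10 to 0.65, adjusted p = 0.682 in limma), and it was 0.083 (-0.026 to 0.19, adjusted p = 0.465) without DAXX OE replicate 1.

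The promoters of AGPAT1 (GRCh38.p14, chr6:32178059-32178358, minus strand, the first of its 5 RefSeq windows) and AGPAT2 (chr9:136687408-136687707, minus strand) are shown because these genes, too, form a pair of 1 step whose ratio is given below. Capitals again mark CCAAT and GC boxes.
AGPAT1: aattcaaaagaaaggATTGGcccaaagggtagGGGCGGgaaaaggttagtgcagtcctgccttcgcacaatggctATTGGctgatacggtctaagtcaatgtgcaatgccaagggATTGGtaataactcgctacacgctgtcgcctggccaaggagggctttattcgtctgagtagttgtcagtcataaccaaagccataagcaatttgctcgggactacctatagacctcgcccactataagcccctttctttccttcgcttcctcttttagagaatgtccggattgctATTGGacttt
AGPAT2: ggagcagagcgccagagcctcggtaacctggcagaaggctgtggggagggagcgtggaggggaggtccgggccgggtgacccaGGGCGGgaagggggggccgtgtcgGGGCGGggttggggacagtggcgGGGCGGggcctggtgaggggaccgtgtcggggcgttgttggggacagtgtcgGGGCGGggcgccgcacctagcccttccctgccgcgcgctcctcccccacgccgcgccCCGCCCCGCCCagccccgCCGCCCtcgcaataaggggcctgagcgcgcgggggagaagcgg
This AGPAT1 window held 4 CCAAT boxes and 1 GC box with a GC content of 47.7%, and the AGPAT2 window held 0 CCAAT boxes and 7 GC boxes, some of them overlapping, with a GC content of 77.3%. The median over all windows was 58.7%. The other 4 AGPAT1 windows held 0 or 1 CCAAT box each, so the number depends on the start site taken.

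Lipins dephosphorylate phosphatidate, and LPIN1 is also known as a nuclear co-regulator that restrains SREBP activity in mouse cells. The LPIN1 signal was 8.006, 7.941 and 7.937 in DSM OE, against 7.685, 8.008 and 8.083 in DAXX OE. As for GPAT3, DAXX OE replicate 1 lay below the DSM OE arrays and the other DAXX OE arrays above them. The difference was 0.036 (95% confidence interval -0.24 to 0.31, adjusted p = 0.880 in limma) with 6 arrays, and the sign turned without DAXX OE replicate 1, to -0.084 (-0.19 to 0.027, adjusted p = 0.468).

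LPIN3, the less studied lipin of this pair, had 7.04, 6.97 and 6.93 in DSM OE, against 7.04, 6.86 and 6.91 in DAXX OE. It was the only member whose signal in DAXX OE replicate 1 was above that of the other DAXX OE arrays. The difference was 0.045 (95% confidence interval -0.16 to 0.25, adjusted p = 0.797 in limma), and it was 0.095 (-0.019 to 0.21, adjusted p = 0.421) without DAXX OE replicate 1. Without that array all LPIN3 signals of DSM OE lay above those of DAXX OE, while all LPIN1 signals of DSM OE lay below.

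The last step is shared by DGAT1 and DGAT2, enzymes of unrelated sequence that catalyse the same reaction, DGAT1 in the endoplasmic reticulum and DGAT2 there and at lipid droplets. The DGAT1 signal was 8.24, 8.17 and 8.14 in DSM OE, against 7.77, 7.99 and 8.08 in DAXX OE. Again the lowest DSM OE array lay above the highest DAXX OE array. The difference was 0.24 (95% confidence interval -0.0052 to 0.48, adjusted p = 0.682 in limma), and it was 0.15 (0.024 to 0.27, adjusted p = 0.253) without DAXX OE replicate 1.

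DGAT2 was the 1 member with a negative difference in all 6 arrays together. Its signal was 7.88, 7.87 and 7.76 in DSM OE, against 7.76, 7.92 and 8.01 in DAXX OE. DAXX OE replicate 1 lay within the DSM OE values, and replicates 2 and 3 lay above them. The difference was -0.060 (95% confidence interval -0.28 to 0.16, adjusted p = 0.764 in limma). It was -0.13 (-0.26 to 0.0086, adjusted p = 0.364) without DAXX OE replicate 1 and -0.18 (-0.33 to -0.037, adjusted p = 0.391) after cyclic loess, where DGAT2 had the lowest adjusted p of the members.

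**Figure D2:**
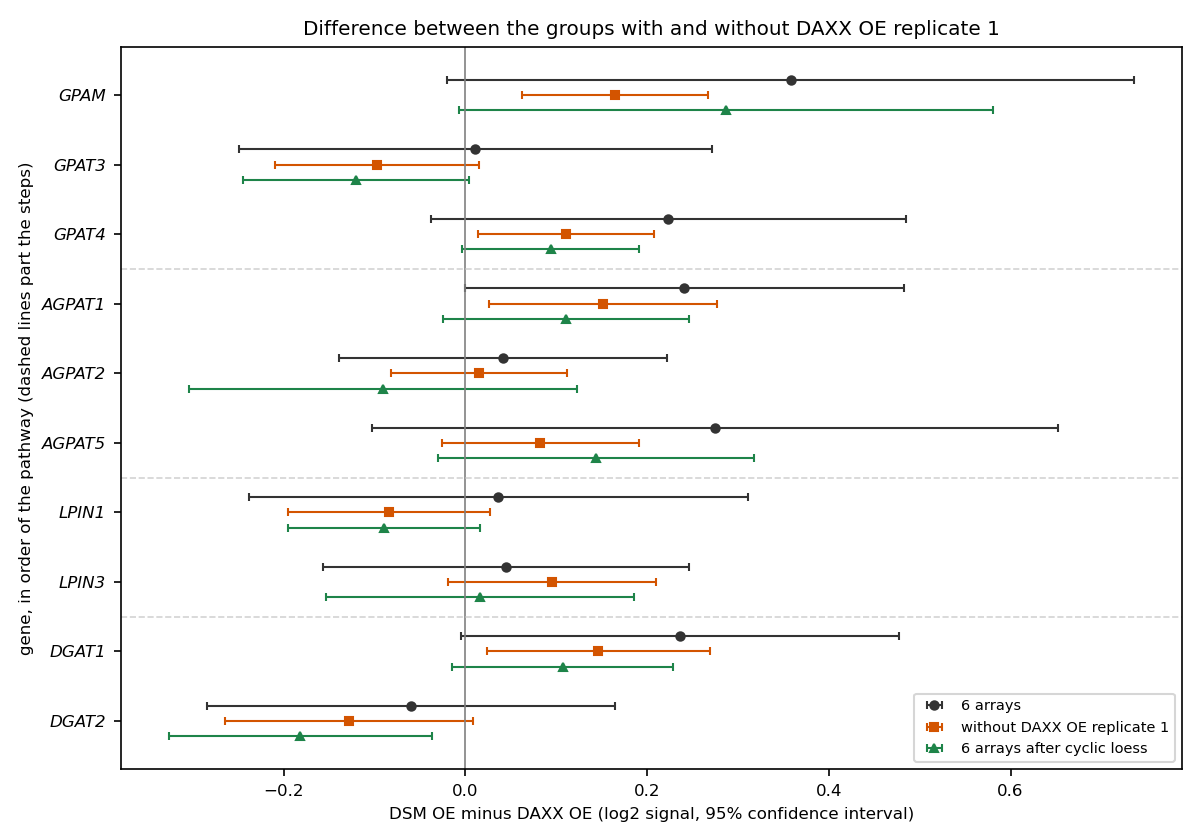
Difference DSM OE minus DAXX OE in log2 signal (x axis) with its 95% confidence interval from limma, for the 10 genes in pathway order from top to bottom. Black circles are all 6 arrays, orange squares leave out DAXX OE replicate 1 and green triangles are 6 arrays after cyclic loess. Without DAXX OE replicate 1 the intervals of GPAM, GPAT4, AGPAT1 and DGAT1 lie above 0, before adjustment over all genes, and GPAT3, LPIN1 and DGAT2 have negative values.

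Counted together, 9 of 10 members had a positive difference with 6 arrays, against 51.3% of all genes and 77.3% of the 6745 genes whose mean signal lay within the members' range of 6.96 to 8.58. The median over the members was 0.13, against 0.0062 over all genes. Without DAXX OE replicate 1 it was 7 of 10, against 52.4% and 57.6%, with a median of 0.089 against 0.0040. After cyclic loess it was 6 of 10, against 48.2% and 50.9%, with a median of 0.055 against -0.0060. With all 6 arrays, most genes of this signal level thus had a positive difference.

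The 6-array difference depended on the signal level across all genes. Genes were placed in 10 bins of equal number by their mean signal. DAXX OE replicate 1 minus the mean of the other DAXX OE arrays had a median of 0.23 in the dimmest bin and of -0.39 in bin 9. The median difference between the groups was -0.076 in the dimmest bin and 0.13 in bins 8 and 9, which held 8 of the 10 members. Set against the median of their own bin, GPAM (0.36 against 0.092), AGPAT5 (0.28 against 0.13), AGPAT1 (0.24 against 0.13), DGAT1 (0.24 against 0.13) and GPAT4 (0.22 against 0.13) lay above it. GPAT3 (0.011), AGPAT2 (0.041), LPIN1 (0.036) and DGAT2 (-0.060) lay below the 0.13 of theirs. LPIN3 (0.045 against 0.0100) was also above its bin. Without DAXX OE replicate 1 the median of every bin was between -0.0094 and 0.013.

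**Figure D3:**
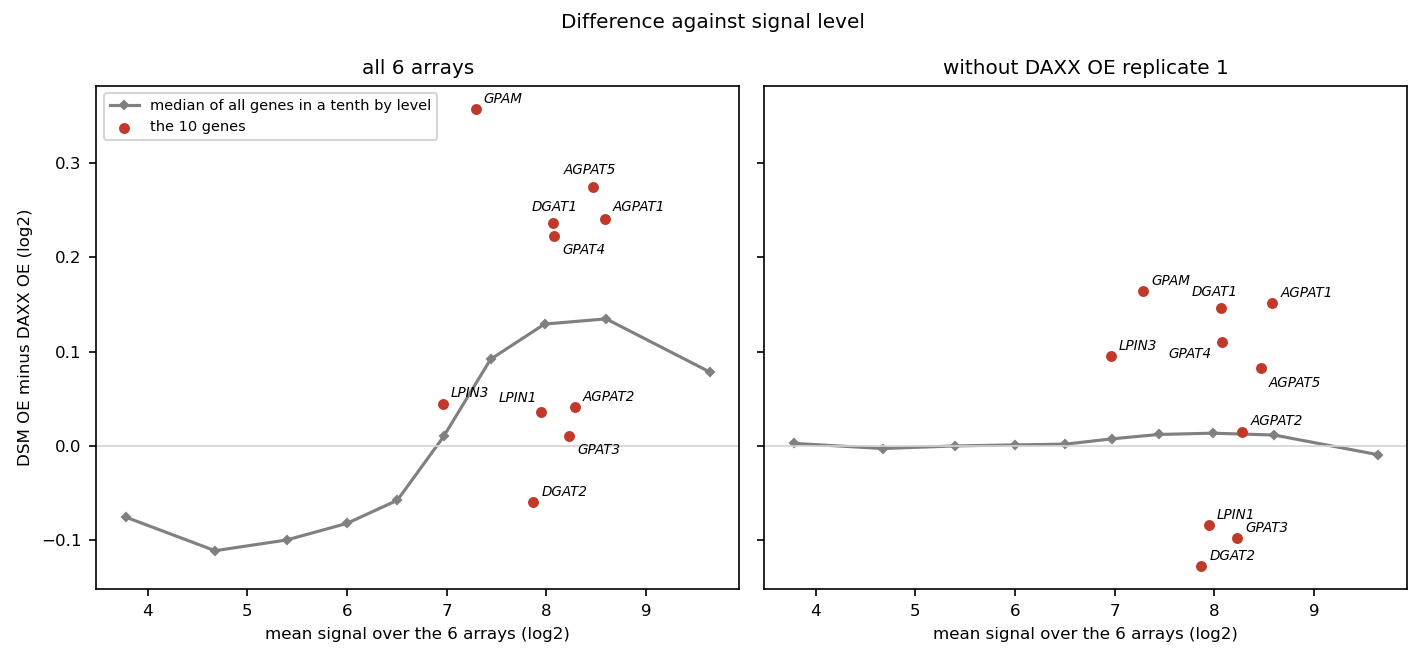
Difference DSM OE minus DAXX OE (log2, y axis) against the mean signal over the 6 arrays (log2, x axis). The grey line joins the medians of all genes in 10 bins by signal, and red points are the 10 genes. With all 6 arrays (left) the line lies between -0.11 and 0.13, and without DAXX OE replicate 1 (right) it stays near 0, with GPAT3, LPIN1 and DGAT2 below it.

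Non-overlap of the groups was set against all genes only. No such share was taken for genes within the members' range of mean signal, of which 77.3% had a positive difference with 6 arrays. With 6 arrays 5 of 10 members had all DSM OE arrays above all DAXX OE arrays, against 13.7% of all genes, and 0 of 10 had them below, against 5.5%. Without DAXX OE replicate 1 the members above were GPAM, GPAT4, AGPAT1, AGPAT5, LPIN3 and DGAT1, 6 of 10 against 18.1%, and the members below were GPAT3, LPIN1 and DGAT2, 3 of 10 against 13.5%. In that comparison 4 of 10, GPAM, GPAT4, AGPAT1 and DGAT1, had an unadjusted p under 0.05 with a higher signal in DSM OE, against 8.86% of all genes. Still 0 of 10 had an adjusted p under 0.05, against 1.25% of all genes, and 0 of 10 passed the thresholds of the study's methods, against 1.07%. After cyclic loess 0 of 10 were called, against 0.111%.

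To compare isoenzymes of a step directly, the log ratio of each pair was taken within every array, a comparison chosen after the values were seen. A shift common to both genes of an array cancels in such a ratio. One that depends on signal level, as in DAXX OE replicate 1, need not cancel between genes of unlike level. Its absolute size depends on the probes, so only its difference between the groups was read. Of 8 pairs, 4 had groups that did not overlap, against 29.2% of all pairs of genes within the members' range of mean signal. The pairs share genes, GPAT3 among them, and are not separate results. Each of the 4 had an exact two-sided permutation p of 0.10, the smallest that 3 against 3 arrays allow, and 0.20 after Benjamini-Hochberg adjustment over the 8 pairs, so the design could not pass a threshold of 0.05.

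DGAT1 minus DGAT2 separated the groups most clearly. It was 0.36, 0.29 and 0.38 in DSM OE, against 0.0046, 0.073 and 0.068 in DAXX OE. The gap between the groups was wider than the spread within either. DAXX OE replicate 1 lay below its replicates, on the side away from DSM OE. The mean ratio differed by 0.30 with 6 arrays and by 0.27 without DAXX OE replicate 1.

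GPAT3 minus GPAT4 was -0.011, 0.061 and 0.083 in DSM OE, against 0.26, 0.30 and 0.20 in DAXX OE. Here DAXX OE replicate 1 lay within its group, between replicates 2 and 3. The ratio differed by -0.21 both with 6 arrays and without that array. GPAM minus GPAT3 was -0.70, -0.84 and -0.77 in DSM OE, against -1.29, -1.05 and -1.01 in DAXX OE, a difference of 0.35, or 0.26 without DAXX OE replicate 1. The signal of GPAT3 was thus lower relative to both of the other GPATs in every DSM OE array than in any DAXX OE array.

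AGPAT1 minus AGPAT2 was 0.48, 0.39 and 0.33 in DSM OE, against 0.075, 0.21 and 0.32 in DAXX OE. There was no overlap, but the nearest arrays of the groups, replicate 3 of each, were almost equal. The difference in this ratio was 0.20, and 0.14 without DAXX OE replicate 1.

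The remaining pairs overlapped. GPAM minus GPAT4 differed by 0.13 (exact two-sided permutation p = 0.20, adjusted 0.27), AGPAT1 minus AGPAT5 by -0.034 (exact p = 0.80, adjusted 0.91) and AGPAT2 minus AGPAT5 by -0.23 (exact p = 0.20, adjusted 0.27). These differences were 0.054, 0.069 and -0.068 in the same order of pairs without DAXX OE replicate 1, so that all moved and the sign of AGPAT1 minus AGPAT5 turned. LPIN1 minus LPIN3 was 0.967, 0.967 and 1.003 in DSM OE, against 0.647, 1.146 and 1.170 in DAXX OE, with means that differed by -0.0089 (exact two-sided permutation p = 1, adjusted 1). Here DAXX OE replicate 1 lay on the other side of the DSM OE arrays from its replicates. Without it the difference was -0.18 and the groups did not overlap, which made 5 of 8 pairs, against 44.6% of all pairs of genes.

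**Figure D4:**
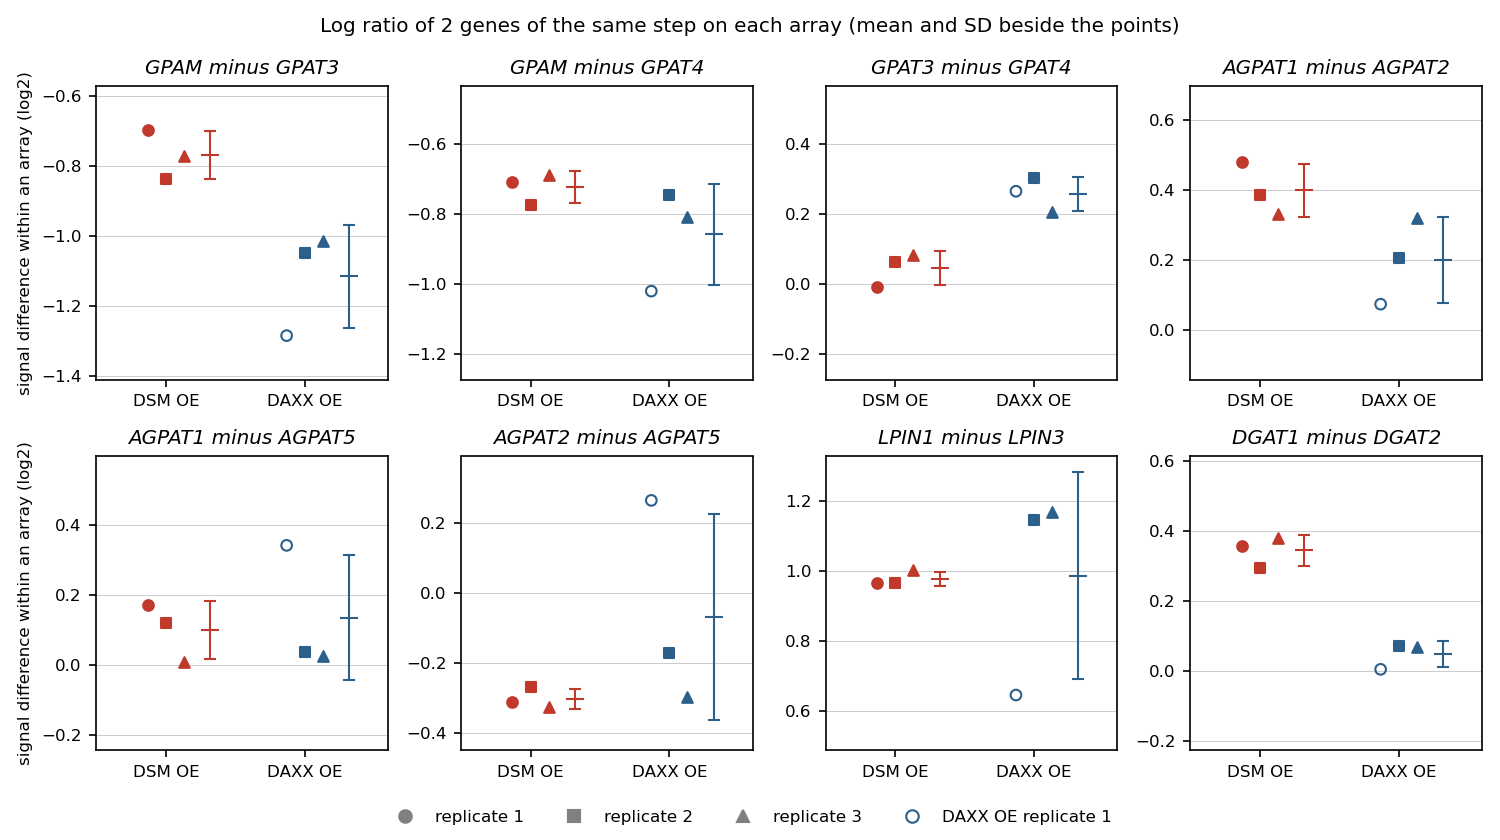
Log ratio of both genes of each same-step pair (y axis, log2 signal of the first gene minus that of the other) on the 3 DSM OE arrays (left, red) and the 3 DAXX OE arrays (right, blue), with the mean and SD beside the points. Every panel spans the same range. The open circle is DAXX OE replicate 1. GPAM minus GPAT3, GPAT3 minus GPAT4, AGPAT1 minus AGPAT2 and DGAT1 minus DGAT2 show no overlap between the groups.

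Genes around the pathway were counted in 6 lists with 69 genes, of which 66 were measured with a symbol of their own (AGPAT3, GK and ACSL3 were not). In limma's fit 0 of 66 had an adjusted p under 0.05 with 6 arrays, against 0.0623% of all genes. Without DAXX OE replicate 1 it was 0 of 66, against 1.25%. At these shares a count of 0 in a list of this size says little, and this holds for each list below. At an unadjusted p under 0.05 there were 4 of 66 higher and 0 lower in DSM OE with 6 arrays, against 3.77% and 1.38% of all genes. The counts without DAXX OE replicate 1 were 9 higher and 7 lower, against 8.86% and 6.19% of all genes. The methods' t-test gave 2 at the unadjusted threshold with 6 arrays, a count for which no share over all genes was taken. The median difference over the 66 genes was 0.069 with 6 arrays, 0.018 without DAXX OE replicate 1 and -0.024 after cyclic loess. Genes of these lists named below, other than PLIN2, PNPLA2, SREBF1 and SREBF2, were chosen after their values were seen.

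Among 7 measured paralogs of the members, 0 were called, and 4 had a positive difference with 6 arrays, 5 without DAXX OE replicate 1 and 3 after cyclic loess. AGPAT4, a further lysophosphatidate acyltransferase, had 7.29, 7.14 and 7.19 in DSM OE, against 6.78, 6.94 and 7.10 in DAXX OE. Its difference was 0.27 (unadjusted p = 0.0376, adjusted p = 0.682), and 0.19 without DAXX OE replicate 1. LPIN2, the third lipin, had 8.52, 8.46 and 8.45 in DSM OE, against 7.97, 8.52 and 8.67 in DAXX OE, the same arrangement as LPIN1. Its difference was 0.091 with 6 arrays and -0.12 (adjusted p = 0.400) without DAXX OE replicate 1.

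The regulators counted 0 of 14 called, with a median difference of 0.11 with 6 arrays and of -0.019 without DAXX OE replicate 1. SREBF1, which encodes the SREBP factor known to drive fatty acid and triglyceride synthesis genes, had 8.08, 8.09 and 7.99 in DSM OE, against 7.83, 7.88 and 7.99 in DAXX OE. Its groups were separated by a narrow margin, with a difference of 0.15 (adjusted p = 0.682) and of 0.12 (adjusted p = 0.375) without DAXX OE replicate 1. After cyclic loess it was 0.026 and the SREBF1 groups overlapped. SREBF2, whose product is best known for cholesterol synthesis genes, had 7.79, 7.80 and 7.72 in DSM OE, against 7.60, 7.86 and 7.96 in DAXX OE. Its difference was -0.036 (adjusted p = 0.870) and -0.14 (adjusted p = 0.280) without DAXX OE replicate 1, where all DSM OE arrays lay below. CNEP1R1, the regulatory subunit of the phosphatase that activates lipins, had a difference of 0.067 with 6 arrays and of -0.21 (adjusted p = 0.124) without DAXX OE replicate 1, and CTDNEP1, its catalytic partner, had 0.16 and 0.028.

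Lipid droplet genes counted 0 of 12 called, with a median difference of -0.074 with 6 arrays and of 0.013 without DAXX OE replicate 1. PLIN2, a coat protein of lipid droplets in most cell types, had 8.13, 8.08 and 8.10 in DSM OE, against 7.87, 7.96 and 8.01 in DAXX OE. No values were shared between the groups, and the difference was 0.16 (adjusted p = 0.682), or 0.12 (adjusted p = 0.255) without DAXX OE replicate 1. After cyclic loess it was 0.029 and the PLIN2 groups overlapped. Substrate supply counted 0 of 6 called, with a median of 0.014 with 6 arrays and of 0.015 without DAXX OE replicate 1.

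The lipolysis list holds lipases, which undo the pathway, and also regulators, the inhibitor G0S2 among them. It counted 0 of 7 called, with a median of -0.0053 with 6 arrays and of -0.073 without DAXX OE replicate 1. PNPLA2, the adipose triglyceride lipase, had 9.49, 9.46 and 9.45 in DSM OE, against 8.95, 9.23 and 9.35 in DAXX OE. DSM OE lay above DAXX OE throughout, and the difference was 0.29 (unadjusted p = 0.0392, adjusted p = 0.682), or 0.17 (adjusted p = 0.176) without DAXX OE replicate 1. G0S2, an inhibitor of that lipase, had 9.74, 9.76 and 9.74 in DSM OE, against 9.70, 9.89 and 9.97 in DAXX OE. Its difference was -0.10 with 6 arrays and -0.18 (adjusted p = 0.124) without DAXX OE replicate 1. Lipases and other genes of the list went the same way as G0S2 in that comparison. PNPLA3 had -0.20 (adjusted p = 0.108 in limma), MGLL -0.14 and ABHD5 -0.073, each with all DSM OE arrays below. In all, 4 of 7 genes had DSM OE below and 1 of 7 above, so the list had no common direction.

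The branches from phosphatidate and diacylglycerol to phospholipids counted 0 of 20 called. Of these genes 18 of 20 lay above the median gene, where most genes had a positive difference with 6 arrays. A positive difference was found for 19 of 20 with 6 arrays, for 15 of 20 without DAXX OE replicate 1 and for 10 of 20 after cyclic loess, against 77.3%, 57.6% and 50.9% of genes within the members' range of mean signal. These shares are not matched to the list, because some of its genes lay outside that range, CDS1 and PCYT1B below it and PTDSS1 and SELENOI above it. CHPT1, a cholinephosphotransferase that uses diacylglycerol and so competes with the DGATs for it, had 7.35, 7.31 and 7.44 in DSM OE, against 6.52, 7.08 and 7.20 in DAXX OE. The groups did not overlap, and the difference was 0.43 (unadjusted p = 0.0390, adjusted p = 0.682), or 0.23 (adjusted p = 0.145) without DAXX OE replicate 1.

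**Figure D5:**
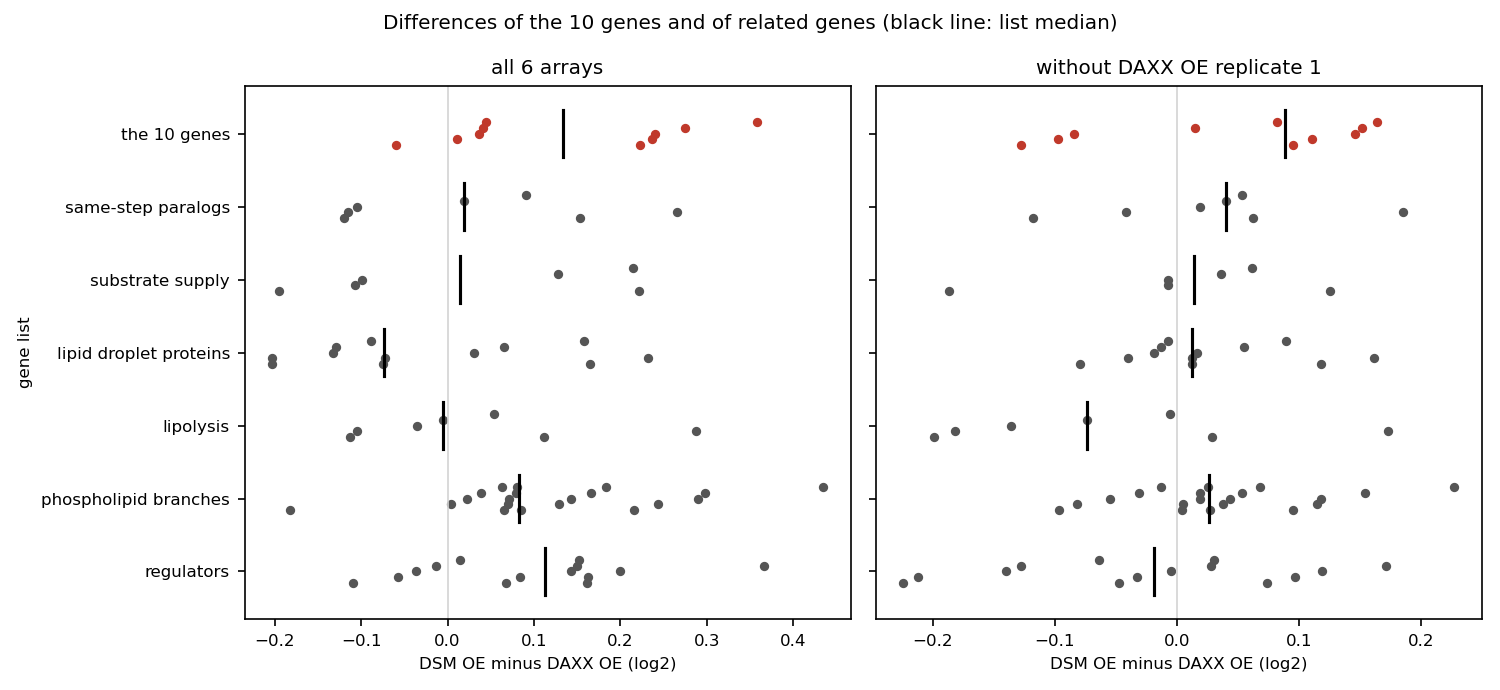
Difference DSM OE minus DAXX OE (log2, x axis) of single genes (points) in the 10 genes of triglyceride synthesis (red, top) and in 6 lists of related genes (grey), with list medians as black lines. With all 6 arrays (left) the median of the 10 genes is 0.13, and without DAXX OE replicate 1 (right) it is 0.089. No gene shown has an adjusted p under 0.05 in either comparison.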

How the data were processed

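Per the study's methods, the authors ran robust multi-array averaging (RMA), and the deposited values are its log2 signals. Affymetrix Expression Console 1.3 is listed in the submitters' processing notes. RMA corrects background, makes the probe distributions of arrays run together alike and summarises probes by cluster. The deposited signals of DAXX OE replicate 1 were still compressed, and which arrays were run together is not stated in the sources used here. ComBat is also described, for batches of arrays, and its use on these 6 arrays is not stated in the sources used here. Batches are not labelled. Array signals carry no depth, so precision is limited by the number of arrays.

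The table held 70523 probe sets, 67528 of them transcript clusters. Clusters with 1 gene symbol were matched to RefSeq (GRCh38.p14), which changed 0 symbols while 2284 clusters kept theirs without a match. All 22465 genes were tested for DSM OE minus DAXX OE with limma 3.58.1 in R 4.3.3 (two-sided), with Benjamini-Hochberg adjustment over all genes and a threshold of 0.05. The script was tested on simulated data. The members and lists were chosen with earlier results of these data known. All members are named, and related genes are named where called, with PLIN2, PNPLA2, SREBF1, SREBF2 and DAXX always given and further ones as marked in the text. For each member the 3 genes with the most similar signals were also listed. The alternatives tried were a replicate block, leaving out each array, median centring, quantile normalization, cyclic loess, only genes above the median level, trended and robust moderation, the mean of a gene's clusters and the methods' t-test. The ratios within arrays and the counts at the study's thresholds without DAXX OE replicate 1 were added after seeing the data.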

Additional observations from a re-analysis of the deposited data

How the results depend on the processing

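No member was called under any alternative run, the lowest adjusted p of a member being 0.149 (GPAM without DAXX OE replicate 1), and no related gene was called. The count over all genes, 14, was 25 after cyclic loess, 5 among genes above the median level, 40 with the replicate block, and between 1 and 280 when 1 array was left out, with 280 without DAXX OE replicate 1 and 1 to 3 without another array. With the replicate block 0 members were called. Same-numbered arrays deviated from their group means with correlations of -0.050, -0.30 and 0.17. Of the 6 arrays, 1 correlated best with its own number. With 3 arrays per group, 1 of them compressed, these values cannot tell whether same-numbered arrays shared a batch. Genes past the study's thresholds, 505, were 247 by the methods' t-test, 1 after Benjamini-Hochberg adjustment of it and 240 without DAXX OE replicate 1, and members past them were 0 each time.

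Signs turned for 3 members. GPAT3 was -0.12 both after cyclic loess and after quantile normalization, and between -0.098 and 0.074 with 1 array left out (-0.098 without DAXX OE replicate 1, -0.00016 without DSM OE replicate 2 and -0.0080 without DSM OE replicate 3). AGPAT2 was -0.091 after cyclic loess and -0.090 after quantile normalization. LPIN1 was -0.089 after cyclic loess and -0.086 after quantile normalization, and between -0.084 and 0.11 with 1 array left out. The other 7 members kept their sign under every alternative run. The cause of these turns was not tested. Pairs of same-step genes without overlap, 4 of 8, were between 4 and 6 with 1 array left out and 4 after each other normalization. Non-overlap is easier to reach with fewer arrays. Of all pairs of genes within the members' range of mean signal, 29.2% had it with 6 arrays and 44.6% without DAXX OE replicate 1. No such share was taken for the other alternatives.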

Other observations

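The genes whose signals were most like each member's were listed as a description, by Pearson's r of the log2 signals over 6 arrays and over the 5 arrays without DAXX OE replicate 1, among 11231 genes above the median level. The 3 genes named for each member, 30 for each set of arrays, had an r of at least 0.978, over few points. Only 2 of the 30 were named for both sets: AGTPBP1 for GPAM (r of 0.9997 over 6 arrays and 0.9981 over 5) and MAP3K12 for LPIN1 (r of 0.9999 over 6 arrays and 0.9996 over 5). For the other 8 members no gene was named for both sets.

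Among the members themselves, the 45 pairwise correlations had a median of 0.73 over 6 arrays and of -0.041 over the 5 arrays without DAXX OE replicate 1, and 9 of them were below 0 over 6 arrays, against 23 over 5. These points share arrays and groups, and no test was made of them.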
